A study of Mus musculus with 6 samples.

Results

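Transcripts of 34 genes that macrophages are known for were followed in RNA libraries of sorted regulatory T (Treg) cells. The genes were chosen by symbol, and all 34 were found among the 23366 gene symbols of the count table. The libraries came from CD4+GFP+ cells sorted by flow cytometry from 12-day-old Foxp3GFP knock-in mice, in which green fluorescent protein reports Foxp3, with 3 libraries from liver and 3 from spleen. Every group shared the knock-in, and no other allele or agent is named in the labels. The gate selects CD4+GFP+ cells, so macrophages were not its target. The comparison asks how neonatal liver Treg cells differ from those of spleen, and here how much macrophage transcript each sort carried. The labels give no animal or pool for a library, so p-values reflect only how far these samples differed from each other, whether for technical or other reasons.

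Macrophages are tissue-resident phagocytes that take up dying cells, microbes and old red cells. In the mouse spleen, red pulp macrophages clear red cells and return their iron, under the transcription factor Spi-C, and carry the adhesion molecule VCAM-1. In the mouse liver the resident macrophages are Kupffer cells, which line the sinusoids and are known for Clec4f, Vsig4, Timd4, Marco and Cd5l. Complement C1q, Csf1r, Emr1 (the older name of Adgre1, F4/80) and the Fc receptors are shared by macrophages of both organs.

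Counts in genes ranged from 8437055 to 10951720 in the liver libraries and were 1199410, 11408960 and 11358446 in spleen 1, spleen 2 and spleen 3, so a single read in spleen 1 was worth 0.860 CPM and in the other libraries between 0.0854 and 0.120 CPM. CPM is the usual per-million unit of read counts, here with library totals scaled by TMM (trimmed mean of M-values). Genes defining the sorted cells were abundant in every library: the summed level of 10 T cell and Treg genes lay between 5997 and 6104 CPM in liver and between 5491 and 6222 CPM in spleen. The libraries were not alike in sex-linked transcripts: liver 2 and spleen 2 held 1 and 2 counts of Xist, liver 1 and spleen 1 held 0 counts of Ddx3y, and liver 3 and spleen 3 held both.

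The members were rare against that background and fell into levels that differed by tissue. Their summed level was 192, 196 and 176 CPM in liver 1, liver 2 and liver 3, and 383, 303 and 453 CPM in spleen 1, spleen 2 and spleen 3. The tissues did not overlap: the means were 188 ± 10.6 CPM (SD, n = 3) in liver and 379 ± 75.1 CPM (SD, n = 3) in spleen. Fewer cells of a type and less RNA per cell cannot be told apart in such bulk libraries. Lyz2, Apoe and Axl made up 57.9% to 67.6% of the liver sum and 41.5% to 54.6% of the spleen sum. Without these genes the sum was 70.6, 82.7 and 57.1 CPM in liver 1, liver 2 and liver 3. It was 174, 157 and 265 CPM in spleen 1, spleen 2 and spleen 3.

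**Figure D1:**
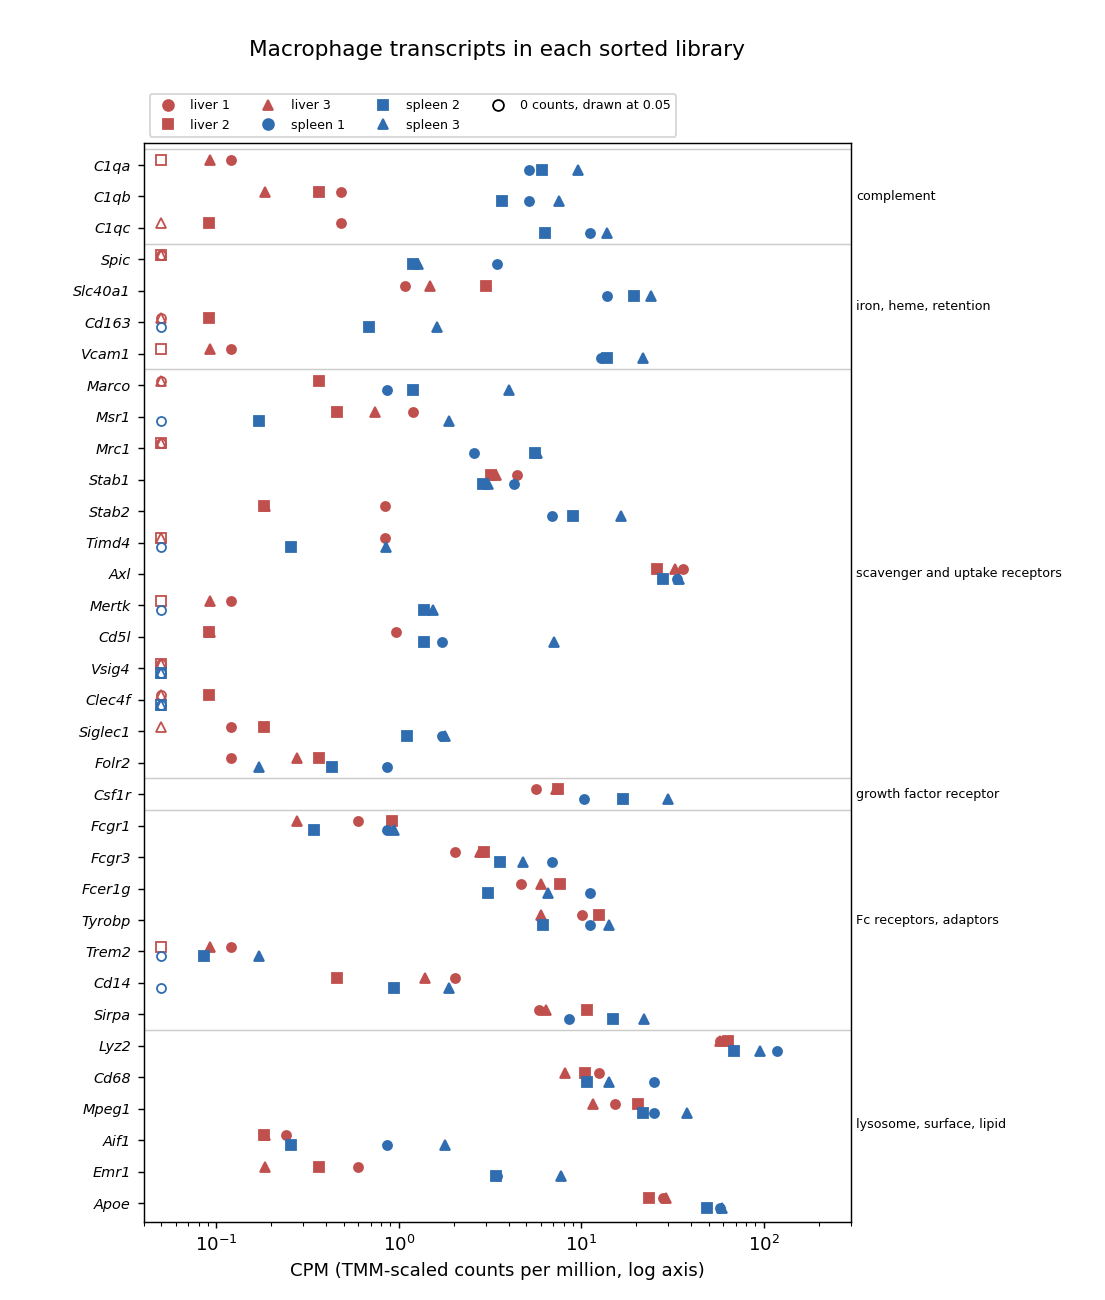
Level of each of the 34 members in each library, in TMM-scaled CPM on a log axis, grouped by role; red marks liver and blue spleen, the shape gives the library, and open symbols are libraries with 0 counts, drawn at 0.05. C1qa, C1qb, C1qc, Vcam1, Mrc1 and Stab2 sit apart by tissue, while Axl, Tyrobp, Stab1 and Fcer1g overlap.

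Members were called by edgeR's quasi-likelihood test with a Benjamini-Hochberg adjusted p under 0.05 over the 11716 genes tested. Of the 34 members, 16 were higher in spleen, 0 were higher in liver and 7 did not pass. The other 11 were left out by the filter on low counts and not tested. In the same test 6.9% of all genes were called higher in spleen and 9.28% higher in liver. At an unadjusted p under 0.05 the number of members higher in liver was again 0, against 15.2% of all tested genes. DESeq2 and limma-voom also gave 0 higher in liver and 16 higher in spleen. A member whose counts sat almost wholly in spleen could pass the filter on low counts through spleen alone, so the number that passed is a description. The median log2 fold change of the 23 tested members was -1.61, with the genes at 0 in liver set to their bound or not, and that of all tested genes was -0.01. Every spleen library exceeded every liver library for 16 of the 23, and for 15.2% of all tested genes. Without the shallow library spleen 1 the number of members called was 18, and without spleen 3 it was 12. Every one of the 16 calls remained in the DESeq2, limma-voom, robust and differently scaled fits.

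The called members split by size. For 11 of them the spleen level was over 10 times the liver level, counted over all reads of each tissue, and for the other 5 it was under 4 times. The first group comprised C1qa, C1qb, C1qc, Vcam1, Emr1, Cd5l, Spic, Slc40a1, Mrc1, Siglec1 and Stab2, and the second Lyz2, Csf1r, Mpeg1, Apoe and Sirpa. The cut points were chosen after the values were seen.

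**Figure D2:**
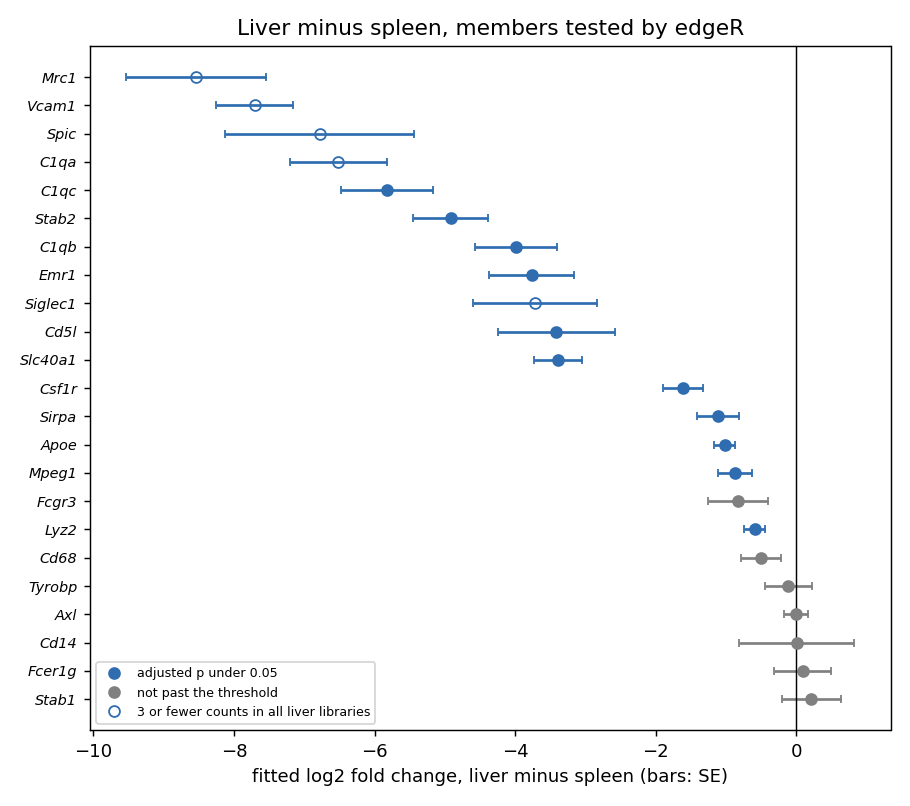
Fitted log2 fold change of liver minus spleen with its SE for the 23 tested members; blue points passed an adjusted p of 0.05, grey points did not, and open points had 3 or fewer counts over all liver libraries, where the fitted value depends on the prior count. The 16 called members all lie below 0, and the 7 others lie between -0.83 and 0.21.

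The bases upstream of the annotated start are shown for C1qc, C1qb, Mrc1 and Stab2, called members that lay higher in every spleen library; these 4 were picked with their values known and are not the 4 largest contrasts. Spi-C and its relative PU.1 are ETS-family factors that bind a GAGGAA core. RefSeq promoters (build GRCm38.p6) were matched by symbol for 24 of the 34 members. GAGGAA on either strand was found in the 250 bases upstream of the start of 14 of them, of 5 of the 9 called members with a promoter, and of 25.9% of the 27025 genes in the promoter table. Axl, Cd68, Fcgr3 and Stab1, which were tested and not called, also held a match. A match is a string of letters and not a bound site. The C1qc (chr4:136892915-136893164) and C1qb (chr4:136886201-136886450) sequences lie on the minus strand of chromosome 4, Mrc1 (chr2:14229164-14229413) on the plus strand of chromosome 2 and Stab2 (chr10:87007943-87008192) on the minus strand of chromosome 10. Each is written 5′ to 3′ toward the start, with GAGGAA or its reverse complement in capitals.
C1qc: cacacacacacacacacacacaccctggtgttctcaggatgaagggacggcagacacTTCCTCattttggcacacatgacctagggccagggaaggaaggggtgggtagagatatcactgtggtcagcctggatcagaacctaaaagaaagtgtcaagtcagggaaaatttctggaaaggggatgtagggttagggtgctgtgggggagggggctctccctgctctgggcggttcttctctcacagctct
C1qb: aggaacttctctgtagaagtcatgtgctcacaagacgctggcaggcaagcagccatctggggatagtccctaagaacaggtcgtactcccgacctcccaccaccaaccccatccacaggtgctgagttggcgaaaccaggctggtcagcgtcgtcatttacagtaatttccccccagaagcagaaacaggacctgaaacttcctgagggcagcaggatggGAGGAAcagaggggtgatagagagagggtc
Mrc1: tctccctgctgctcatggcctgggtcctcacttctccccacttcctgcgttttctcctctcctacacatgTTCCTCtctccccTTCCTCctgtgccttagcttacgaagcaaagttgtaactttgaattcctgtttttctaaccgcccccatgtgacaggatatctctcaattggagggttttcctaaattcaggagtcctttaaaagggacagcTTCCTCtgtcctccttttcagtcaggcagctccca
Stab2: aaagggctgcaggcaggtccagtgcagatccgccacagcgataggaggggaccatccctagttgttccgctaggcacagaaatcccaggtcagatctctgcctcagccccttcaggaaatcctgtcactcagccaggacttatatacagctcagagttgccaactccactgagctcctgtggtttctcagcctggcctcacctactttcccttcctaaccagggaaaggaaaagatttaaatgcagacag
C1qc and C1qb held 1 match each, Mrc1 held 3 and Stab2 held 0, and each of these genes was called higher in spleen.

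The chains of complement C1q, the molecule that starts the classical pathway and tags dying cells for uptake, were almost absent from liver. C1qa was at 0.120, 0 and 0.0925 CPM in liver 1, liver 2 and liver 3 and at 5.16, 6.08 and 9.65 CPM in spleen 1, spleen 2 and spleen 3. All liver libraries together held 2 counts of C1qa against 190 in spleen, a ratio of 116 with a 95% counting interval from 31.7 to 967 (edgeR adjusted p = 3.21e-06). C1qb was at 0.480, 0.366 and 0.185 CPM in liver against 5.16, 3.68 and 7.51 in spleen (fold change on the log2 scale -3.99 ± 0.58 SE, edgeR adjusted p = 9.97e-05). C1qc was at 0.480, 0.0916 and 0 CPM in liver against 11.2, 6.33 and 13.8 in spleen (-5.82 ± 0.65, edgeR adjusted p = 6.06e-06; -7.43 without liver 1 and -5.22 without liver 3). No liver library reached the lowest spleen library for any chain. The chains are encoded side by side on chromosome 4 and assemble in equal numbers, and per kilobase of exon their mean spleen levels were 6.69, 5.01 and 8.68 CPM per kb for C1qa, C1qb and C1qc. The share of C1qb in that per-kilobase sum was 25.0%, 23.3% and 24.9% in spleen 1, spleen 2 and spleen 3. The other chains varied more. In the same order the share of C1qa was 26.1%, 40.3% and 33.5%, and that of C1qc 48.9%, 36.3% and 41.5%.

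Genes of red pulp macrophages and iron return followed the same direction. Vcam1, an adhesion molecule also made by stromal and endothelial cells, was at 0.120, 0 and 0.0925 CPM in liver against 12.9, 13.8 and 21.8 in spleen. Its 2 liver counts stood against 431 in spleen, a ratio of 264 with a counting interval from 72.6 to 2184 (edgeR adjusted p = 5.08e-08). Spic, which encodes Spi-C, had 0 counts in every liver library and was at 3.44, 1.20 and 1.28 CPM in spleen. Set against a floor of 3 counts over the liver group, Spic was at least 13.5-fold higher in spleen (edgeR adjusted p = 0.00215). Slc40a1, the iron exporter ferroportin, was at 1.08, 3.02 and 1.48 CPM in liver against 13.8, 19.4 and 24.2 in spleen (fold change on the log2 scale -3.40 ± 0.34, edgeR adjusted p = 1.71e-06). Unlike Spic, Slc40a1 was present in each liver library. Cd163, the receptor for haemoglobin bound to haptoglobin, was not tested; it had 1 count in liver and 8 and 19 counts in spleen 2 and spleen 3. Its 0 counts in spleen 1 allow up to 2.58 CPM, above its 0.685 and 1.62 CPM in the other spleen libraries.

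Scavenger and uptake receptors were divided. Of the 13 members with this role 4 were higher in spleen, 0 higher in liver, 2 did not pass and 7 were not tested. Mrc1, the mannose receptor CD206, had 0 counts in every liver library and was at 2.58, 5.56 and 5.72 CPM in spleen, at least 55.1-fold higher over the same floor (edgeR adjusted p = 1.84e-05). Stab2, a scavenger receptor of sinusoidal endothelium and some macrophages, was at 0.841, 0.183 and 0.185 CPM in liver against 6.88, 8.99 and 16.6 in spleen (-4.91 ± 0.53, edgeR adjusted p = 4.24e-06; -5.88 without liver 1). Its paralog Stab1 was not separated by tissue, at 4.44, 3.21 and 3.42 CPM in liver against 4.30, 2.91 and 3.07 in spleen (0.21 ± 0.42, edgeR adjusted p = 0.795). Of the stabilins, then, Stab2 passed the test and Stab1 did not; the difference between the 2 genes was not itself tested.

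Cd5l, a secreted protein of macrophages, was at 0.961, 0.0916 and 0.0925 CPM in liver against 1.72, 1.37 and 7.09 in spleen (-3.41 ± 0.83, edgeR adjusted p = 0.00803). The Cd5l call rested on spleen 3, without which the log2 fold change was -2.00 (edgeR adjusted p = 0.249); it was also lost without liver 2 or liver 3 (-2.91 and -2.93, edgeR adjusted p = 0.0520 and 0.0503), and without liver 1 the value was -5.18. Siglec1, the sialic acid receptor CD169 of metallophilic macrophages, was at 0.120, 0.183 and 0 CPM in liver against 1.72, 1.11 and 1.79 in spleen. Its 3 liver counts stood against 36 in spleen, a ratio of 14.7 with a counting interval from 4.64 to 74.5 (edgeR adjusted p = 0.00693, or 0.0609 without spleen 3). The fitted log2 fold change, which depends on the prior count at so few reads, was -3.72 and without liver 2 -4.47. Axl, a receptor kinase that binds dying cells through Gas6, had nearly equal means in the tissues, at 36.3, 26.0 and 32.7 CPM in liver against 33.5, 28.1 and 34.2 in spleen (0.00 ± 0.17, edgeR adjusted p = 0.997). Its relative Mertk was not tested, with 2 counts in liver and 34 in spleen, a ratio of 20.8 with a counting interval from 5.33 to 179.

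The members named above for Kupffer cells had few counts or none in the liver libraries. Cd5l held 10 counts in liver against 101 in spleen, and Marco was also mostly in spleen, so neither gene was particular to liver here. Whether any of these reads came from Kupffer cells was not tested. Vsig4, a complement receptor, had 0 counts in every library of both tissues. Clec4f, a lectin of mouse Kupffer cells, had 1 count in liver 2 and 0 elsewhere. Timd4, a phosphatidylserine receptor, had 7, 0 and 0 counts in liver and 0, 3 and 10 in spleen. Marco, a class A scavenger receptor, had 4 counts in liver and 62 in spleen, a ratio of 19.0 with a counting interval from 7.05 to 71.8. The related Msr1 had 23 and 24 counts and the folate receptor gene Folr2 8 and 8, and neither was tested. With no filter on low counts, Marco, Mertk and Cd163 were called higher in spleen as well.

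Csf1r, the receptor for the growth factor that macrophages depend on, was present in every library. Its level was 5.65, 7.42 and 7.31 CPM in liver against 10.3, 17.0 and 29.8 in spleen (fold change on the log2 scale -1.61 ± 0.29, edgeR adjusted p = 0.000652). The tissues did not overlap, and spleen 3 was highest.

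Fc receptors, their signalling adaptors and related receptors were mostly not called. Of 7 members with this role 1 was higher in spleen, 4 did not pass and 2 were not tested. Tyrobp, the adaptor DAP12, was at 10.1, 12.5 and 6.01 CPM in liver against 11.2, 6.16 and 14.2 in spleen (-0.11 ± 0.34, edgeR adjusted p = 0.869). Fcer1g, the common Fc receptor gamma chain, was at 4.68, 7.60 and 6.01 CPM in liver against 11.2, 3.08 and 6.57 in spleen (0.09 ± 0.40, edgeR adjusted p = 0.917). The tissues overlapped for both adaptors, which NK cells also express. The sign of Fcer1g was negative in DESeq2 and that of Tyrobp positive in limma-voom. Fcgr3, a low-affinity Fc receptor, was at 2.04, 2.93 and 2.78 CPM in liver against 6.88, 3.60 and 4.78 in spleen without passing (-0.83 ± 0.43, edgeR adjusted p = 0.219), although every spleen library lay above every liver library. Cd14, the lipopolysaccharide co-receptor, was at 2.04, 0.458 and 1.39 CPM in liver against 0, 0.942 and 1.88 in spleen (0.01 ± 0.82, edgeR adjusted p = 0.997). Fcgr1, the high-affinity Fc receptor, had 18 counts in liver and 16 in spleen, and Trem2, a lipid receptor that signals through DAP12, had 2 and 3. Sirpa, the receptor for the CD47 signal that stops phagocytosis, was at 5.89, 10.8 and 6.38 CPM in liver against 8.60, 14.9 and 22.2 in spleen (-1.11 ± 0.30, edgeR adjusted p = 0.0153). Its libraries overlapped, and the Sirpa call was lost without liver 1, liver 3 or spleen 3 (-0.96, -0.99 and -0.74, edgeR adjusted p = 0.0714, 0.0630 and 0.192) and at equal depth (-1.03, edgeR adjusted p = 0.132).

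Of 6 lysosomal, surface and lipid genes 4 were higher in spleen, 1 did not pass and 1 was not tested. Lyz2, the lysozyme of macrophages, monocytes and neutrophils, was at 57.4, 63.9 and 57.4 CPM in liver against 118, 68.8 and 94.9 in spleen (-0.59 ± 0.15, edgeR adjusted p = 0.0114). Every spleen library was above every liver library for Lyz2, with spleen 2 close to liver 2, and the call was lost with all libraries thinned to equal depth (-0.46, edgeR adjusted p = 0.136). Lyz1, a near copy of Lyz2 that can share its reads, held between 2.64 and 5.98 CPM. Apoe, the apolipoprotein E that macrophages and hepatocytes secrete, was at 28.1, 23.6 and 29.0 CPM in liver against 57.6, 48.7 and 59.0 in spleen (-1.02 ± 0.15, edgeR adjusted p = 0.000104). Of 3 tested hepatocyte genes 2 were called with more in liver, unlike Apoe; they were Alb and Ahsg. Alb was at 6.01, 2.20 and 7.31 CPM in liver and had 0 counts in spleen, Afp averaged 1.75 CPM in liver against 3.29 in spleen without passing, and the summed level of 9 hepatocyte genes was 5.95 to 17.2 CPM in liver against 2.91 to 4.30 in spleen. Mpeg1, the pore-forming perforin-2, was at 15.3, 20.5 and 11.7 CPM in liver against 24.9, 21.9 and 38.0 in spleen (-0.87 ± 0.24, edgeR adjusted p = 0.0178); the call was lost without liver 1, liver 3 or spleen 3 (-0.84, -0.69 and -0.53, edgeR adjusted p = 0.0628, 0.0789 and 0.234).

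Emr1 was at 0.601, 0.366 and 0.185 CPM in liver against 3.44, 3.42 and 7.77 in spleen (-3.77 ± 0.60, edgeR adjusted p = 0.000246; -3.15 without spleen 3). Emr1 libraries did not overlap. Cd68, a lysosomal membrane protein, was at 12.5, 10.4 and 8.14 CPM in liver against 24.9, 10.8 and 14.2 in spleen and did not pass (-0.50 ± 0.29, edgeR adjusted p = 0.271). Aif1, the actin-binding protein Iba1, had 6 counts in liver and 25 in spleen and was not tested.

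Levels of different genes were compared per kilobase of exon, with exon lengths from GENCODE M21. On that scale Lyz2 was first in both tissues, at a mean of 45.3 CPM per kb in liver and 71.3 CPM per kb in spleen. Tyrobp and Apoe came next in liver, at 16.9 and 14.7 CPM per kb, and Apoe and Tyrobp in spleen, at 30.0 and 18.6 CPM per kb. C1qc ranked 6 of 34 in spleen and 20 of 34 in liver, and C1qa 8 and 23. No test was made of the order.

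The spleen libraries differed among themselves. In spleen 3 the members were higher than in spleen 2, at similar depth: the ratio was above 1 for 31 of the 32 members with counts, with a median of 1.74, and the 95% counting interval lay above 1 for 20 and below 1 for 0. Over all tested genes the interval lay above 1 for 16.6% and below 1 for 16.8%, and the median ratio was 0.999. These intervals compare 2 libraries and not conditions. The members did not share a ratio: Cd5l was 5.17 times as high in spleen 3 (3.01 to 9.47) and Marco 3.35 times (1.81 to 6.59), while Mrc1 was 1.03 times (0.720 to 1.47) and Slc40a1 1.24 times (1.04 to 1.49). C1qc stood between them at 2.18 (1.65 to 2.92).

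**Figure D3:**
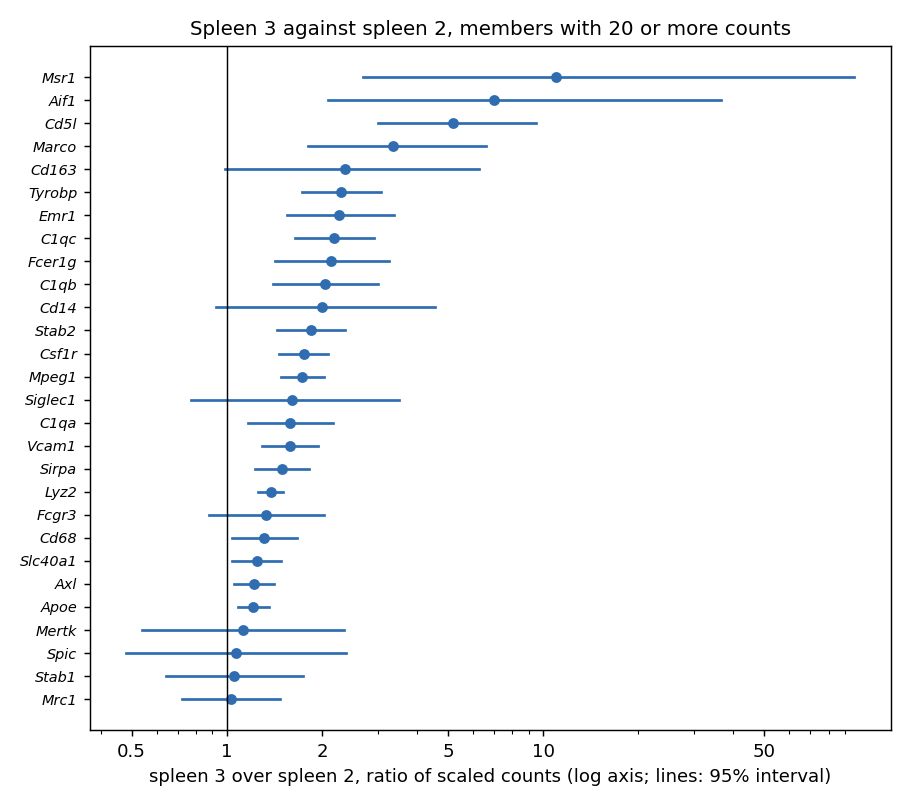
Ratio of spleen 3 to spleen 2 in TMM-scaled counts on a log axis, for the 28 members with 20 or more counts in the pair; lines are 95% intervals for counting error. The interval lies above 1 for 20 members, and Msr1, Aif1, Cd5l and Marco have the highest ratios while Mrc1, Stab1 and Spic sit near 1.

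Granulocyte, erythroid and B cell markers, of cells that a spleen sort could hold, also had higher sums in spleen. The highest library was not always shared: member and B cell sums peaked in spleen 3, granulocyte and erythroid sums in spleen 1. Over all tested genes 6.9% were called higher in spleen and 9.28% higher in liver. At an unadjusted p under 0.05 the share higher in liver was 15.2%. Granulocyte genes were higher in spleen in 12 of 17 cases and Mmp9 was higher in liver, and their summed level was 329 to 362 CPM in liver against 543 to 910 in spleen, highest in spleen 1. Ngp and Ltf, secondary granule genes, had the highest means of the list over the libraries of both tissues, the measure by which leading genes are named for each list here, and Lyz2, Fcer1g and Tyrobp among the members are also expressed by granulocytes. Erythroid genes were higher in spleen in 12 of 12 tested cases. Their summed level was 27.4 to 34.8 CPM in liver against 278 to 361 in spleen. The globin gene Beta-s and Gata1 led on that pooled mean, while Slc4a1 was above Gata1 in spleen. The other listed globin genes, Hba-a1, Hba-a2, Hbb-b1 and Hbb-b2, had 0 counts in every library and add nothing to the sum. The reason was not tested. Of 13 B cell genes 6 were higher in spleen and 0 in liver (0 in liver also with DESeq2, limma-voom and at an unadjusted p), or 3 without spleen 3. Their summed level, led by Cd79a and Cd79b, was 152 to 183 CPM in liver against 243 to 350 in spleen, highest in spleen 3. Spleen 3 also exceeded spleen 2 beyond counting error in 9 of 13 B cell genes, 11 of 17 granulocyte genes and 7 of 16 monocyte genes, against 2 of 13 erythroid genes. The part of these cells in the results on the members was not tested.

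Monocyte genes were called in both directions between the tissues, with 3 of 13 called toward liver and 1 toward spleen, and summed levels of 400 to 424 CPM in liver against 360 to 437 in spleen. The count higher in liver was 1 without liver 2 or spleen 2, and that higher in spleen was 3 without spleen 1 and 2 without liver 3 or spleen 2. Ccr2, Ccl6 and Itgam were those toward liver and Treml2 the gene toward spleen. Treml2 and Ccr2 led on the pooled mean, with Fn1 above Ccr2 in spleen, and Ccr2 is also a receptor of Treg cells. Dendritic cell genes were called in 1 of 6 cases, Cd83, higher in spleen and not so without spleen 2, with sums of 36.4 to 47.5 CPM in liver against 53.3 to 60.9 in spleen; Cd83 and Itgax led. Among 8 NK and CD8 T cell genes, 3 had more in liver and 1 had more in spleen, with Nkg7 and Cd8b1 leading on the pooled mean, though Gzma was second in liver and Eomes in spleen. Nkg7, Gzma and Klrb1c were those with more in liver and Eomes the one with more in spleen, with sums of 89.6 to 113 CPM in liver against 42.7 to 53.3 in spleen. Endothelial and stromal genes other than Pecam1, which T cells express, were low: Lyve1 and Dcn had 0 counts, Col1a1 was at 3.19 CPM in liver against 3.94 in spleen on average, and Oit3 was called, higher in liver (2.97 ± 0.76, edgeR adjusted p = 0.0110; not called without liver 3 or spleen 3). Kdr, an endothelial receptor, had 1 count in liver and 44 in spleen, and Cxcl12, a stromal chemokine gene, 2 and 24; neither was tested. Kdr was called higher in spleen when liver 1, liver 2, liver 3 or spleen 1 was left out, Cxcl12 without spleen 3, and both with no filter on low counts. Vcam1 and Stab2 among the members are also made by endothelium, whose part in their values was not tested. The endothelial and stromal sum was 190 to 231 CPM in liver against 230 to 261 in spleen.

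**Figure D4:**
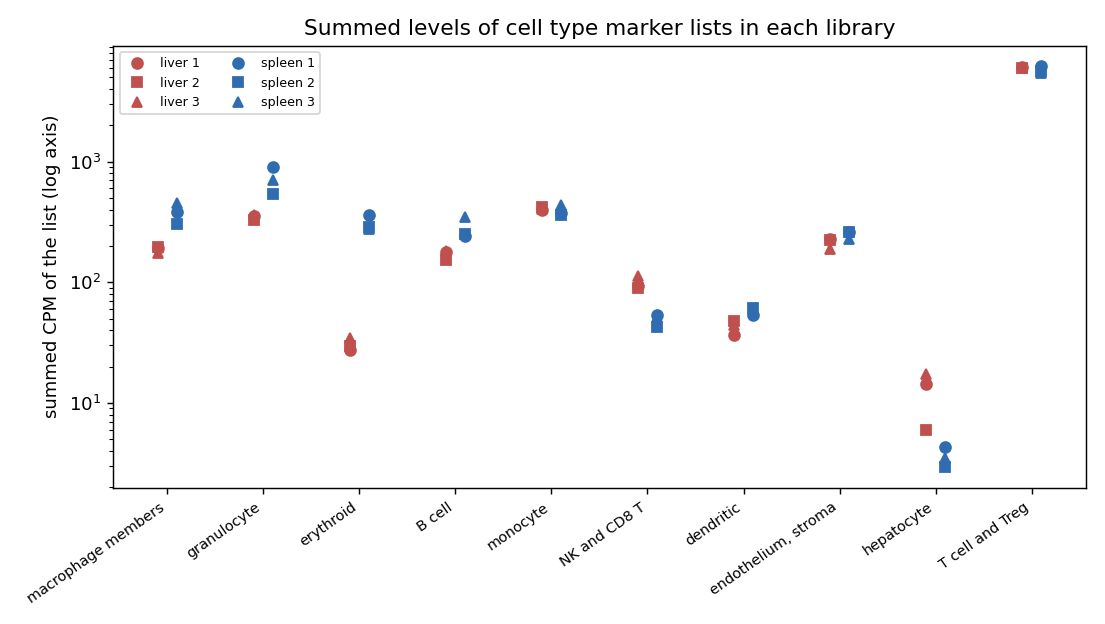
Summed CPM of each marker list in each library on a log axis; red is liver, blue is spleen and the shape gives the library. The macrophage members lie at 176 to 196 CPM in liver against 303 to 453 in spleen, the erythroid list shows the widest gap of the lists drawn, and the T cell and Treg list lies far above the others.

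Other genes of the pathways in which the members act gave a mixed picture. Their counts, here and in the paragraphs below, stand against 6.9% of all tested genes called higher in spleen and 9.28% higher in liver. The share higher in liver at an unadjusted p under 0.05 was 15.2%. Of 16 tested genes of heme and iron handling 4 were higher in spleen, 0 were higher in liver by edgeR at the adjusted or the unadjusted threshold and by DESeq2 or limma-voom, and 12 did not pass. Hmox1, which opens the heme ring, was at 5.53, 3.76 and 2.96 CPM in liver against 17.2, 11.6 and 23.1 in spleen (-2.10 ± 0.32, edgeR adjusted p = 0.000146). Blvrb, a biliverdin reductase, was at 8.97 ± 2.43 CPM in liver against 24.7 ± 4.07 in spleen (SD, n = 3 each; -1.42 ± 0.24). Lcn2, a siderophore-binding protein of neutrophil granules, was also called (-0.94 ± 0.20), as was Trf, transferrin (-0.71 ± 0.23). Erythroid markers were also higher in spleen, and the part of erythroid cells in the values of these iron and heme genes was not tested. The ferritin genes Fth1 and Ftl1 did not pass, at 435 ± 43.4 and 614 ± 36.9 CPM in liver against 388 ± 38.9 and 712 ± 61.4 in spleen.

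Of 15 macrophage transcription factors 2 were higher in spleen, 4 higher in liver and 9 did not pass, and the number higher in liver was 2 without spleen 2. Those higher in spleen included Id3, which restrains E proteins and is also a Treg gene (-1.55 ± 0.14). Maf (0.75 ± 0.11) and Irf8 (0.77 ± 0.11), both also expressed by T cells, were higher in liver, with Cebpb and Rxra. Sfpi1, the table's name for Spi1 that encodes PU.1, did not pass at 11.6 ± 1.31 CPM in liver against 16.9 ± 2.87 in spleen (-0.48 ± 0.22, edgeR adjusted p = 0.167).

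Among 9 other complement genes tested, 2 were higher in spleen and 1 higher in liver. Cfp, properdin, was at 12.0 ± 0.811 CPM in liver against 26.1 ± 3.14 in spleen (-1.14 ± 0.19), and C3 at 11.7 ± 1.37 and 24.4 ± 3.77 CPM (-1.12 ± 0.20). Itgam, a chain of complement receptor 3, was higher in liver (0.58 ± 0.16) but not called without liver 2 or spleen 2. The classical pathway proteases downstream of C1q were at or near the floor, with 1 count of C1ra in all libraries and 5 counts of C1s, 4 of them in spleen 1. Of 17 genes of dying-cell uptake 5 were higher in spleen, 5 higher in liver and 7 did not pass; the number higher in liver was 1 without liver 1 or spleen 2, 2 without spleen 3 and 3 without liver 3. Those higher in spleen were the scavenger receptor gene Cd36 (-3.17 ± 0.65), the endocytic receptor gene Lrp1 (-1.27 ± 0.27), Anxa1 (-0.85 ± 0.20), Scarb1 and Dock1, and those higher in liver were the integrin genes Itgav and Itgb3, Cd47, Mfge8 and Rac1. Gas6, the ligand of Axl and Mertk, was at 0.357 CPM in liver against 0.370 in spleen on average and was not tested.

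In the Csf1 receptor axis 0 of 11 genes other than Csf1r passed in either direction by edgeR, with 2 toward liver and 3 toward spleen at an unadjusted p under 0.05. DESeq2 called 0 and limma-voom 2 higher in liver and 1 higher in spleen; 1 was called higher in spleen without spleen 1 or spleen 2, and 1 higher in liver without spleen 3. Csf1, the ligand, was at 30.5 ± 4.71 CPM in liver against 21.3 ± 1.03 in spleen (0.50 ± 0.18, edgeR adjusted p = 0.0623), while Il34 was at 0.0305 and 0.0570 CPM. Of 20 lysosomal genes, 13 did not pass, 5 had more in liver and 2 had more in spleen, with 1 to 6 and 1 to 2 when a library was left out; the first count was 1 without spleen 3, 2 without liver 3 or spleen 2 and 3 without liver 1, and the second was 1 without each of these but liver 1 and without liver 2. Those higher in liver included Lgmn (1.11 ± 0.16), Ctsb, Npc2 and Gpnmb, and Lamp1 (-0.49 ± 0.09) and Cd63 were higher in spleen.

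Of 5 tested genes from a further list of spleen macrophages 3 were higher in spleen and 1 higher in liver. They were Epor (-4.93 ± 0.67), which erythroid cells also express, Hpgd (-2.80 ± 0.81) and Treml4 (-2.03 ± 0.67), and Itgad was higher in liver (1.03 ± 0.28). The count higher in spleen was 1 without liver 1, liver 3 or spleen 3, and Itgad was not called without liver 3 or spleen 2. Cd209b, a lectin of marginal zone macrophages, had 0 counts in every library. Of 6 further Kupffer cell genes 2 were tested and neither was called in either direction by edgeR, by DESeq2, by limma-voom or at an unadjusted p under 0.05, whereas Fcna was called higher in spleen with no filter on low counts and when liver 1, liver 2, liver 3 or spleen 1 was left out. The tested genes were Il18bp, at 5.77, 8.24 and 5.83 CPM in liver against 8.60, 7.36 and 5.89 in spleen, and Cdh5, which endothelium also makes, with 35 counts in liver and 28 in spleen. Clec1b, a lectin of Kupffer cells, had 0 counts in liver and 1 in spleen, and Fcna, ficolin A, had 11 counts in liver and 177 in spleen.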

How the data were processed

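RNA was sequenced from sorted CD4+GFP+ cells, 3 libraries of liver and 3 of spleen. The authors deposited raw read counts per gene symbol, and per the submitters' processing notes HISAT2 2.1, HTSeq 0.11 and build mm9 were used. Neither annotation nor strand setting is given in the sources used here, so overlapping or antisense genes and near-identical copies are uncertain. Unassigned-read entries, 5 in all and 25.5% to 29.0% of a library, were left out. Libraries were grouped by tissue label and numbered in accession order.

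Counts were filtered with filterByExpr (11716 genes kept), scaled by TMM and tested for liver minus spleen with edgeR 4.0.16 in R 4.3.3, with Benjamini-Hochberg adjustment; the SE is that implied by the F statistic. Intervals (95%, exact) and the floor of 3 counts cover counting error only. The members, lists and role groups were chosen with earlier results of these data known, so the summed level is given without a test. Lists name genes other than the 34 members; an older symbol was matched through RefSeq synonyms. The genes named from each list are those with the smallest p or the highest level, with others chosen after their values were seen; some list genes are not reported here. On simulated liver against spleen counts for 11577 genes, the fit recovered 61 of 66 genes with a 4-fold difference, 55 of 67 with a 2-fold and 28 of 67 with a 1.5-fold difference, and 9 of its 153 calls were false.

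Alternatives were RLE and upper-quartile scaling, DESeq2 1.42.0, limma-voom (limma 3.58.1), no filter, 5 CPM in 3 libraries, a robust fit, scaling without marker genes, thinning to 1199410 counts, a minimum log2 fold change of 1 and leaving out each library. A block on sex-linked transcripts (Xist or Ddx3y over 10 CPM) was added after seeing the data.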

Additional observations from a re-analysis of the deposited data

How the results depend on the processing

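The number of members higher in spleen was 16 with RLE or upper-quartile scaling, DESeq2, limma-voom, a robust fit, markers removed before scaling or the sex-linked block, 19 with no filter, 10 with 5 CPM in 3 libraries and 5 at equal depth, where 6 and 9 of the 16 had too few counts to enter the fit. It was 14 with a minimum log2 fold change of 1, where Lyz2 and Mpeg1 dropped out. It was 12 to 18 with a library left out, and 0 members were higher in liver in any setting run. The log2 difference of the summed level (liver minus spleen) was -0.99 and ranged from -1.15 to -0.86 with a library left out. Over all genes limma-voom called 1243 higher in spleen, thinning 596 toward liver and 419 toward spleen, and without a library these counts were 722 to 1245 and 486 to 989.

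Of the 7 members that did not pass, Cd68, Fcgr3 and Stab1 kept their sign in every setting run and Axl, Cd14, Fcer1g and Tyrobp did not. Axl was at -0.0064 with RLE, -0.045 with upper-quartile scaling, -0.0082 in DESeq2, -0.034 in limma-voom, -0.0044 with 5 CPM in 3 libraries, -0.00079 with markers removed before scaling, -0.038 with the sex-linked block and -0.10 to 0.13 with a library left out. Cd14 was at -0.00031 with RLE, -0.042 with upper-quartile scaling, -0.29 in limma-voom, -0.18 with the block and -0.43 to 0.70 with a library left out. Fcer1g was at -0.0026 in DESeq2 and Tyrobp at 0.14 in limma-voom; leaving out a library gave -0.37 to 0.35 and -0.47 to 0.36. The cause was not tested. No paired analysis was possible because the labels give neither replicate numbers nor shared animals; the sex-linked block, set from the data, put 1 liver and 1 spleen library in each level and is not a pairing given by the design. The filter on low counts left out 11 members. Of these, Marco and Mertk were called higher in spleen once the shallow library spleen 1 was left out. Vsig4 had 0 counts in every library.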
